A study of Mus musculus with 40 samples.

Results

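Genes for the receptors that position B cells in lymphoid tissue, and for the Rgs proteins that damp those receptors, were followed in mouse splenic B cells cultured with CpG. The set held 8 genes: Cxcr4, Cxcr5, Ccr7, Ccr6, S1pr1, Gpr183, Rgs1 and Rgs2. Each was read through the probe that carried its platform gene symbol and had the highest mean over the 40 arrays in the authors' table. The 8 genes stand among 19057 genes with a probe, and 7 of the 8 are among the 9453 genes that passed the detection filter. The 40 samples formed 8 groups of 5 biological replicates: Bank1-/- B cells at 0, 6, 24 and 48 h of CpG, and WT B cells at the same hours. CpG oligonucleotides mimic unmethylated bacterial DNA and are sensed in B cells by the endosomal receptor TLR9, and Bank1 encodes a scaffold protein of B cell receptor signalling. All mice were C57BL/6 per the labels, which name a Bank1-/- line backcrossed for 9 generations, and give both littermates and purchased C57BL/6J animals as WT sources. B cells were isolated by negative selection on magnetic beads, with a purity typically above 95% by surface staining. No age is given in the labels, nor whether replicates came from separate mice or separate cultures, so p-values measure the spread between these samples. No culture without CpG was analysed here, so a change from 0 h combines CpG with time in culture and with recovery from isolation.

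Homing receptors are G protein-coupled receptors that read gradients of chemokines or lipids. CXCR5 draws B cells into follicles toward CXCL13, CCR7 draws them toward the T cell zone along CCL19 and CCL21, and CXCR4 responds to CXCL12 and holds cells in bone marrow and in the germinal centre dark zone. CCR6 responds to CCL20, GPR183 (EBI2) to oxysterols at the follicle edge, and S1PR1 to sphingosine 1-phosphate during exit into lymph and blood. RGS proteins speed up GTP hydrolysis by G alpha subunits and so shorten signals from these receptors. In B cells, RGS1 is known to restrain responses to CXCL12 and CXCL13.

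The start sites of 4 of the 8 genes, Cxcr4, Ccr6, Gpr183 and Rgs2, were matched by symbol in a RefSeq table of mouse promoters (GRCm38.p6, 250 bases before and 50 after each start). The promoters that held any of 8 short motifs are shown, and capitals mark the motif matches. Both strands were searched. The core promoter motifs were the TATA box, spelled as TATAAA, the CCAAT box by its own letters, and the GC box, for which the letters CCGCCC were used. The motifs of B cell and inducible factors were the octamer with letters ATGCAAAT, the AP-1 site with letters TGANTCA, the CRE with letters TGACGTCA, the forkhead site with letters GTAAACA, and an NF-kB motif. The lines run 5′ to 3′ on the gene's strand. Cxcr4 lies on the minus strand at chr1:128592250-128592549, Ccr6 on the plus strand with a first start at chr17:8235793-8236092 and a second at chr17:8242276-8242575, and Rgs2 on the minus strand at chr1:144004100-144004399.
Cxcr4: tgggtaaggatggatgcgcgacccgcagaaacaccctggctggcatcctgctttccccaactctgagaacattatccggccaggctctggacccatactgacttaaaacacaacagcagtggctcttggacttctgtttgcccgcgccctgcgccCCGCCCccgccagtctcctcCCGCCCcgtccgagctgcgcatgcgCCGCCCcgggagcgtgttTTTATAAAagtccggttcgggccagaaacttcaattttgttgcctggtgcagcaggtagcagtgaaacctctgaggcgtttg
Ccr6, first start: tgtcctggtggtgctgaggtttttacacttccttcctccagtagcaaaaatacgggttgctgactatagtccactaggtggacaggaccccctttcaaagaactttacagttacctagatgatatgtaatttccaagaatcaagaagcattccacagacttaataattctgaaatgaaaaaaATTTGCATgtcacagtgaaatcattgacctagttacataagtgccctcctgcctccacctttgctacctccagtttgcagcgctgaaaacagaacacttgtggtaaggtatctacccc
Ccr6, second start: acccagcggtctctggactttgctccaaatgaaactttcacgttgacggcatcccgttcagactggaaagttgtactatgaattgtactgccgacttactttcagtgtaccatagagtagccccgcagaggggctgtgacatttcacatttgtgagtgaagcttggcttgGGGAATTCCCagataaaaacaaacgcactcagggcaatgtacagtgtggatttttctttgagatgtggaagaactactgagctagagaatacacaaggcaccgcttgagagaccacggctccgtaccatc
Rgs2: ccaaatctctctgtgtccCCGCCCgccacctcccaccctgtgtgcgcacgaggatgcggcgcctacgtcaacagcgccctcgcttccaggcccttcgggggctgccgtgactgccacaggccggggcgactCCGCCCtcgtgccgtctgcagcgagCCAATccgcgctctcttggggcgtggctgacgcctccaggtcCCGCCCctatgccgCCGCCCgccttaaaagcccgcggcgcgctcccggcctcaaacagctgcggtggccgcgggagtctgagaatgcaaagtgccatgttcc
The Cxcr4 window held 3 GC boxes and a TATA box that reads on both strands with overlap, beginning at positions -32 and -30 from the start. The Rgs2 window held 4 GC boxes and a CCAAT box at -94. The first Ccr6 start held an octamer on the reverse strand at -68, and the second held an NF-kB match at -80. Among 32851 promoters of this length, 1.74% held the octamer, 1.2% the NF-kB motif, 13.6% the TATA letters, 35.7% a GC box and 37.4% a CCAAT box. AP-1, CRE and forkhead letters, held by 7.81%, 1.79% and 3.65% of promoters, were found in none of the windows of these genes, and the Gpr183 window held none of the 8 motifs.

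Levels are normalized log2 intensities from Illumina bead arrays, and detection on an array meant a level above that of 99% of its 1287 probes for olfactory receptors, which put the threshold at 6.26 to 7.02. The mean raw intensity per array ran from 145.7 to 539.9. Bank1 itself was lower in Bank1-/- at every hour by log2 differences of -1.84 (-1.39 without the library described next), -1.05, -2.48 and -2.27 at 0, 6, 24 and 48 h, and its Bank1-/- means were 9.54, 6.76, 7.71 and 9.00. Of 10 B cell markers, 8 had a probe and each of the 8 was detected on 13 to 40 arrays, with Cd79b, Blnk, Cd22, Ms4a1 and Cd74 on all 40. Of 8 T cell markers with a probe, 5 (Cd3d, Cd3e, Cd4, Cd8a and Thy1) were detected on 0 arrays. Cd3g was detected on 2, Lat on 25 and Cd8b1 on 40. The NK cell marker Prf1 was detected on 40 arrays, and the other NK cell markers with a probe on 0 or 1. The dendritic cell marker Siglech was detected on 40, and the others of its list on 0 to 7.

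The library Bank1-/- 0 h replicate 5 stood apart and went against its hour. Over the 7 detected genes its root mean square log2 distance was 3.09 to the nearest other Bank1-/- 0 h library, but 0.164 to the nearest Bank1-/- 24 h library and 0.123 to the nearest WT 24 h library. Over all genes tested these distances were 1.00, 0.163 and 0.177. The library is shown as labelled, and results that turn on it are given with and without it.

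**Figure D1:**
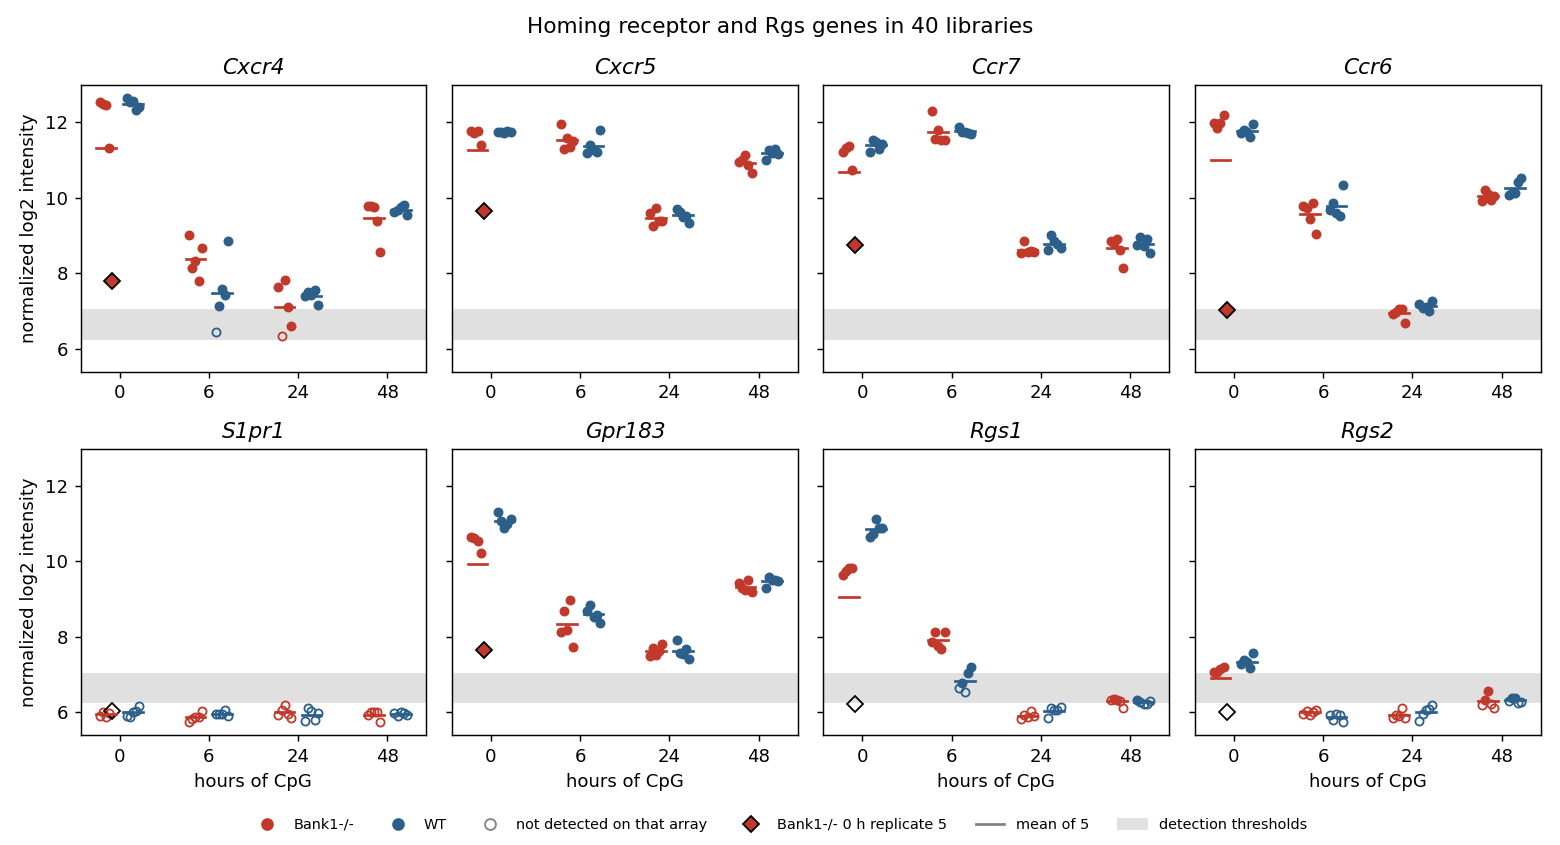
Normalized log2 intensity (vertical axis) of each gene in each of the 40 libraries, by hours of CpG (horizontal axis), with Bank1-/- in red and WT in blue. Lines are means of 5 libraries, open symbols are arrays on which the probe was not detected, the grey band spans the detection thresholds of 6.26 to 7.02, and the diamond marks Bank1-/- 0 h replicate 5, which sits beside the 24 h libraries in each panel except that of S1pr1, a gene not detected on any array.

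In WT cells all 7 detected genes were lower at 24 h of CpG than at 0 h, but they took different courses. Cxcr4, Rgs1 and Rgs2 had fallen by 6 h, and Ccr6 and Gpr183 fell in steps. By the test with all libraries, Cxcr5 and Ccr7 fell only between 6 and 24 h. For Cxcr5 that timing depended on the setting, as described below. From 24 to 48 h Cxcr4, Cxcr5, Ccr6 and Gpr183 rose again, whereas Ccr7 did not pass the test and Rgs1 was near background. The count of 7 of 7 lower at 24 h compares with 30.1% of all 9453 genes lower at an adjusted p under 0.05. The median log2 difference was -3.44 over the 7 genes and 0.04 over all genes. In bulk samples, fewer cells of a type and less RNA per cell cannot be told apart. The B cell marker list moved the same way in this comparison, with 7 of its 8 genes lower and a median of -1.75, and so did 15 of 15 genes of a list of early genes that respond to the handling of cells, with a median of -4.15. Under median scaling these counts were 7 of 8 and 14 of 15. The part of either in the result was not tested.

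Cxcr4, the CXCL12 receptor, fell within 6 h. In WT at 0 h its 5 libraries read 12.63, 12.52, 12.55, 12.32 and 12.40. At 6 h they read 6.43, 7.13, 7.58, 7.42 and 8.84, the first of which was not detected. The groups were far apart, and the 6 h libraries spread over more than the 0 h libraries did. The difference was -5.00 (SE 0.50, 95% interval -6.03 to -3.98, limma adjusted p = 4.95e-11). At 24 h the values were 7.40, 7.50, 7.43, 7.55 and 7.16, which lay within the 6 h range, and the 24 h to 6 h difference was -0.07 (adjusted p = 0.913). At 48 h they were 9.61, 9.66, 9.74, 9.81 and 9.53, above every 24 h library by a mean of 2.26 (adjusted p = 0.000222). The 48 h level was still lower than that at 0 h, by a difference of -2.81 (adjusted p = 1.13e-05).

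In Bank1-/- cells Cxcr4 started at 12.53, 12.46, 12.44 and 11.32 in replicates 1 to 4 and 7.80 in replicate 5. At 6 h the libraries read 9.00, 8.15, 8.31, 7.80 and 8.67. Without replicate 5 of 0 h the fall was -3.80 (SE 0.31, adjusted p = 8.44e-14), and with it -2.93 (adjusted p = 4.44e-06). Cxcr4 fell again between 6 and 24 h, by a difference of -1.29 (adjusted p = 0.0308), to values of 7.63, 6.35, 7.82, 7.10 and 6.60, of which replicate 2 was not detected. This call was lost under 9 of 54 other settings. The 48 h values of 9.78, 9.77, 9.74, 9.38 and 8.57 all exceeded those at 24 h, by a mean of 2.35 (adjusted p = 0.000144).

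Cxcr5 was high at the first hours and lowest at 24 h. WT means were 11.73 ± 0.02, 11.36 ± 0.25, 9.53 ± 0.14 and 11.18 ± 0.11 (SD, n = 5) at 0, 6, 24 and 48 h. The 24 h libraries, 9.33 to 9.70, lay below every library of the other hours. The 24 h to 6 h difference was -1.83 (adjusted p = 6.14e-09) and the 48 h to 24 h difference was 1.65 (adjusted p = 5.92e-08). The 6 h to 0 h difference of -0.37 did not pass the test (adjusted p = 0.136), although it did without Bank1-/- 0 h replicate 5 in the shared spread (adjusted p = 0.00471). That step also depended on the probe, since a second Cxcr5 probe gave 0.43 and another 0.08. Over 55 other settings the 6 h to 0 h difference ran from -1.25 to 0.43, and 8 of them gained the call. The share of the fall that came before 6 h is therefore not fixed by these data. Under median scaling, which raised the median of all genes by 0.58 in the 24 h to 6 h comparison, the Cxcr5 difference was -0.60 and not called (adjusted p = 0.223).

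Bank1-/- cells had Cxcr5 means of 11.25 ± 0.91, 11.53 ± 0.26, 9.46 ± 0.20 and 10.91 ± 0.18 (SD, n = 5) over the same hours. The 0 h value was 11.65 ± 0.18 (n = 4) without replicate 5, at 9.64. Their fall from 6 to 24 h was -2.06 (adjusted p = 4.93e-10) and their rise to 48 h was 1.45 (adjusted p = 7.29e-07). In both steps the 5 libraries of one hour did not overlap those of the other.

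Ccr7 did not follow the other receptors. In WT its libraries read 11.20, 11.52, 11.47, 11.28 and 11.41 at 0 h and 11.87, 11.74, 11.74, 11.70 and 11.68 at 6 h. Every 6 h library was above every 0 h library, but the difference of 0.37 (95% interval -0.16 to 0.90) did not pass (adjusted p = 0.215). Without Bank1-/- 0 h replicate 5 it did (adjusted p = 0.0147), and under median scaling its sign turned, to -0.42. At 24 h the values were 8.60, 9.02, 8.86, 8.77 and 8.66, a fall from 6 h of -2.96 (SE 0.26, adjusted p = 4.68e-12). At 48 h they were 8.74, 8.95, 8.72, 8.90 and 8.52, which overlapped the 24 h range, with a difference of -0.01 (95% interval -0.55 to 0.52, adjusted p = 0.968).

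In Bank1-/- cells Ccr7 rose between 0 and 6 h. The 0 h libraries read 11.21, 11.32, 11.35, 10.73 and, in replicate 5, 8.74, and the 6 h libraries read 12.29, 11.53, 11.79, 11.51 and 11.52. The 2 hours did not overlap. The difference was 1.06 (adjusted p = 0.000643), or 0.58 (adjusted p = 0.000542) without replicate 5. The later course was that of WT, with 8.62 ± 0.13 at 24 h and 8.66 ± 0.31 at 48 h (SD, n = 5), a difference of 0.04 (adjusted p = 0.908).

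Ccr6 fell to the edge of detection and came back. WT libraries read 11.70, 11.78, 11.74, 11.60 and 11.94 at 0 h, 9.67, 9.85, 9.59, 9.50 and 10.32 at 6 h, and 7.17, 7.08, 7.12, 7.01 and 7.25 at 24 h. No 2 of these hours overlapped. The steps were -1.97 (adjusted p = 0.000454) and -2.66 (adjusted p = 1.14e-05). At 48 h the values of 10.06, 10.12, 10.13, 10.40 and 10.52 were 8.69-fold above those at 24 h (log2 difference 3.12, adjusted p = 8e-07), the largest rise of the 7 genes in this comparison. Relative to 0 h they were still lower, by -1.51 (adjusted p = 0.00733), a call that median scaling ended (-0.97, adjusted p = 0.183).

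In Bank1-/- cells Ccr6 ran a like course. At 0 h replicates 1 to 4 read 11.96, 11.85, 11.97 and 12.18 and replicate 5 read 7.03, within the 24 h range of 6.67 to 7.05. The 6 h mean was 9.56 ± 0.33 and the 48 h mean 10.03 ± 0.12 (SD, n = 5). The fall from 0 to 24 h was -5.06 (adjusted p = 1.09e-28) without replicate 5 and -4.06 (adjusted p = 2.46e-08) with it, and the rise to 48 h was 3.10 (adjusted p = 9.67e-07). A second Ccr6 probe followed the chosen probe over the 40 arrays (Pearson r = 0.978, a description) and gave steps of the same sign in WT, with -1.08 at 6 h and -3.27 at 24 h against 0 h and 1.94 from 24 to 48 h.

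Gpr183, the oxysterol receptor, fell most in the first 6 h. WT libraries read 11.30, 11.05, 10.87, 10.98 and 11.10 at 0 h and 8.67, 8.84, 8.52, 8.59 and 8.36 at 6 h, a difference of -2.47 (SE 0.30, adjusted p = 4.14e-09). At 24 h the mean was 7.62 ± 0.19 and at 48 h 9.47 ± 0.10 (SD, n = 5), and neither hour overlapped the hour before it. The steps were -0.98 (adjusted p = 0.0057) and 1.85 (adjusted p = 2.25e-06), and the first was lost under median scaling (-0.00094, adjusted p = 0.999). In Bank1-/- cells the 6 h, 24 h and 48 h means were 8.33 ± 0.49, 7.63 ± 0.13 and 9.33 ± 0.13. There the fall from 6 to 24 h was -0.70 (adjusted p = 0.0475), which 34 of 54 other settings did not call, and the rise to 48 h was 1.70 (adjusted p = 9.5e-06).

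S1pr1, the receptor for exit along sphingosine 1-phosphate, was not detected on any of the 40 arrays. Its probe read 5.74 to 6.20, below the lowest detection threshold, and it was left out of the tests. When the filter on detection was dropped, its lowest adjusted p over the 17 comparisons was 0.209. A probe at background gives no level, so S1pr1 is not described further.

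Rgs1, a brake on chemokine receptor signals, went from well above background to not detected. WT libraries read 10.64, 10.71, 11.11, 10.87 and 10.88 at 0 h, and 6.65, 6.79, 6.54, 7.04 and 7.21 at 6 h, where replicates 1 and 3 were not detected. The fall was -3.999 (SE 0.34, adjusted p = 9.83e-13). At 24 h it was detected on 0 of 5 arrays, so the level at 0 h was at least 22.5-fold higher (adjusted p = 3.14e-13). At 48 h the libraries read 6.34, 6.28, 6.21, 6.23 and 6.29, and 1 of 5 was detected. In Bank1-/- cells Rgs1 was 7.85, 8.13, 7.75, 7.68 and 8.12 at 6 h, not detected at 24 h, and detected on 2 of 5 arrays at 48 h. The fall from 0 to 6 h was -1.14 (adjusted p = 0.00438), or -1.85 (adjusted p = 6.04e-18) without replicate 5 of 0 h.

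Rgs2 was dim from the start. WT libraries read 7.27, 7.38, 7.32, 7.17 and 7.56 at 0 h, and the probe was detected on 0 of 5 arrays at 6 h and again at 24 h. Against 6 h, the 0 h level was at least 1.52-fold higher (adjusted p = 3.55e-12). Against 24 h it was at least 1.99-fold higher (adjusted p = 1.94e-10). Bank1-/- replicates 1 to 4 read 7.07, 7.06, 7.15 and 7.20 at 0 h, and replicate 5 read 6.02 and was not detected. At 48 h the probe was detected on 2 of 5 arrays of each genotype.

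**Figure D2:**
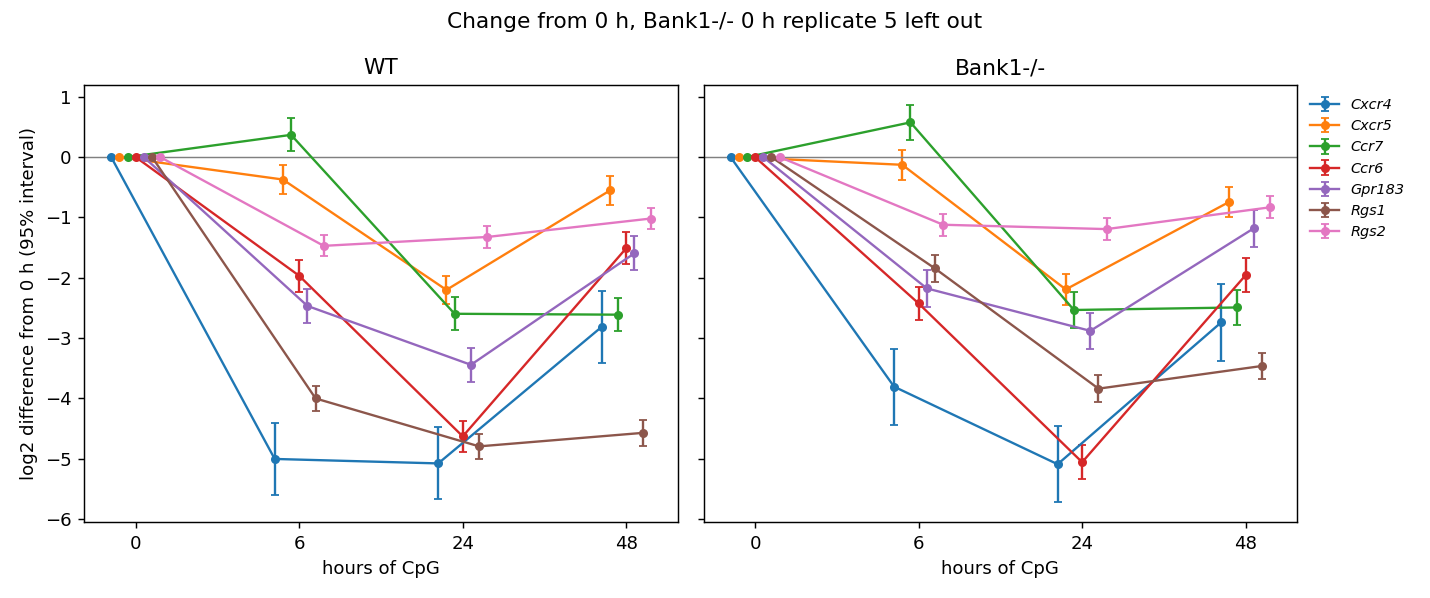
Log2 difference from 0 h (vertical axis, limma estimate with 95% interval) at 6, 24 and 48 h (horizontal axis) for the 7 detected genes in WT and in Bank1-/- cells, with Bank1-/- 0 h replicate 5 left out. All 7 genes lie below 0 at 24 h in both genotypes, and Ccr7 is the gene above 0 at 6 h, by 0.37 in WT, a sign that turned to -0.42 under median scaling, and 0.58 in Bank1-/-. Values of Rgs1 and Rgs2 at 24 h, and of Rgs2 at 6 h, stand for groups in which the probe was not detected.

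Counted by comparison, 5 of 7 genes were lower at 6 h than at 0 h in WT, where 33.5% of all genes were lower. At 48 h against 0 h 7 of 7 were lower in WT, with 26.0% of all genes lower. The call for Cxcr5 among them (-0.55, adjusted p = 0.0318) was lost under 7 of 55 other settings, with differences as small as -0.0011. Between 6 and 24 h 5 of 7 fell in WT, also against 26.0% of all genes, and the call for Rgs1 among them (adjusted p = 0.0467) was lost under 34 of 55 other settings. Between 24 and 48 h 4 of 7 rose, against 26.6%. In Bank1-/- cells 5 of 7 were lower at 6 h and 1, Ccr7, was higher, against 29.5% and 31.2% of all genes, and without replicate 5 of 0 h the 5 lower compare with 31.5%. All 7 were lower at 24 h, against 30.6%, or 33.1% without that library. At 48 h 4 of 7 were lower than at 0 h, against 25.6%, and without that library 7 of 7 were, against 29.5%. Between 6 and 24 h 6 of 7 fell, against 27.9%, and between 24 and 48 h 5 of 7 rose, against 28.3%. The 5 include Rgs2 (adjusted p = 0.0206), detected on 0 of 5 Bank1-/- arrays at 24 h and on 2 of 5 at 48 h. The lower bound of its fold was 0.85, so no rise of Rgs2 is read from that call. The later hours are each set against the same 0 h libraries, so these counts are not independent of each other.

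Ranked by mean over the 8 groups with all libraries, Cxcr4, Ccr6, Gpr183 and Rgs2 had WT 0 h at the top, followed in turn by Bank1-/- 0 h, WT 48 h and Bank1-/- 48 h. Without Bank1-/- 0 h replicate 5 the Bank1-/- 0 h mean of Ccr6, 11.99, was above the WT 0 h mean of 11.75. That of Cxcr5, 11.65, then moved above the Bank1-/- 6 h mean of 11.53. The 24 h groups were last for Cxcr4, Cxcr5, Ccr6, Gpr183 and Rgs1. Neighbours in the Cxcr4 and Ccr7 orders all overlapped in range, partly because of the 7.80 and 8.74 of that library. For Ccr6 and Cxcr5 the 24 h groups did not overlap the group ranked above them. They did overlap Bank1-/- 0 h, through the 7.03 and 9.64 of replicate 5, and the other 4 libraries of that group read at least 11.85 and 11.39. For Gpr183, WT 0 h did not overlap Bank1-/- 0 h, nor Bank1-/- 48 h WT 6 h below it. For Rgs1 the order was WT 0 h, Bank1-/- 0 h, Bank1-/- 6 h and WT 6 h, with the 48 h and 24 h groups below, and Bank1-/- 6 h did not overlap WT 6 h. Ccr7 had both 6 h groups first.

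At 0 h Rgs1 and Gpr183 were lower in Bank1-/- than in WT cells, and the other 5 genes did not pass the test. Rgs2 was not settled, since 7 of 54 other settings called it. Its second probe passed with all libraries, at -0.37 (limma adjusted p = 0.0268), but not without replicate 5, at -0.28 (adjusted p = 0.103). The Rgs1 libraries of Bank1-/- read 9.63, 9.73, 9.81, 9.82 and, in replicate 5, 6.21, all below the lowest WT library at 10.64. The difference was -1.80 (SE 0.34, adjusted p = 0.00276) with replicate 5 and -1.09 (SE 0.11, 95% interval -1.31 to -0.87, adjusted p = 3.38e-09) without it, a fold of 2.13. Gpr183 read 10.64, 10.61, 10.54 and 10.22 in replicates 1 to 4 and 7.65 in replicate 5, against 10.87 to 11.30 in WT. Its groups did not overlap either, and the difference was -1.13 (SE 0.30, adjusted p = 0.0442), or -0.56 (SE 0.15, adjusted p = 0.0491) without replicate 5. Both p-values for Gpr183 lie close to the threshold, and the call was lost when any 1 of 24 single libraries was left out.

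The count of 2 of 7 lower at 0 h compares with 0.793% of all genes lower, or 0.603% without replicate 5. The 2 genes whose groups did not overlap compare with 3.48% of all genes, or 7.05% without that library. A fit of the 0 h groups alone, in which replicate 5 widens the spread, gave adjusted p = 0.62 for Rgs1 and 0.684 for Gpr183. With that library left out of this fit they were 0.000387 and 0.0608. Median scaling gave -1.56 for Rgs1 (adjusted p = 0.19) and -0.87 for Gpr183 (adjusted p = 0.778).

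Without replicate 5 the 0 h differences of the remaining genes were small. They were -0.29 for Cxcr4 (95% interval -0.93 to 0.34), -0.08 for Cxcr5 (-0.33 to 0.17), -0.22 for Ccr7 (-0.51 to 0.07), 0.24 for Ccr6 (-0.04 to 0.51) and -0.22 for Rgs2 (-0.41 to -0.04), with adjusted p from 0.268 to 0.891. The early genes that respond to handling moved with the 0 h result, since 10 of the 15 tested were lower in Bank1-/-, with replicate 5 or without it. Their mean level was 10.41, 10.34, 10.31 and 10.02 in Bank1-/- replicates 1 to 4, 7.38 in replicate 5 and 11.14 to 11.32 in WT. Without replicate 5, Hspa1a, a heat shock gene, differed by -2.48 and Fosb, an immediate early gene, by -1.56. Under median scaling 4 of the 15 were lower, a count given without the share of all genes under that setting. Myeloid markers moved too, with 2 of 5 tested lower in Bank1-/-, S100a8 by a difference of -0.54 (adjusted p = 0.0121) and Lyz2 by -0.84 (adjusted p = 0.0315). Without replicate 5 S100a8 alone passed (adjusted p = 0.0204 against 0.0743 for Lyz2), and under median scaling 0 of the 5 did. The myeloid list mean was 6.28 to 6.90 in Bank1-/- and 6.74 to 7.16 in WT. Of this list Cd14, Itgam and Mpo were detected on 0 of 40 arrays. Adgre1 was detected on 36, Lyz2 on 19, Csf3r on 9, S100a8 on 6, Csf1r on 5 and S100a9 on 2. The part of either list in the Rgs1 and Gpr183 results was not tested.

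At 6 h the order of Rgs1 was the opposite of that at 0 h. Bank1-/- libraries, 7.68 to 8.13, all lay above the WT libraries, 6.54 to 7.21. The difference was 1.06 (SE 0.34, 95% interval 0.36 to 1.76, adjusted p = 0.0241), a fold of 2.09. Without Bank1-/- 0 h replicate 5, which enters the shared spread, its adjusted p was 7.87e-10. The call was lost without Bank1-/- 6 h replicate 5, WT 6 h replicate 1 or WT 6 h replicate 3 in turn. Of all genes 14.5% were higher in Bank1-/- at 6 h and 6.60% had groups that did not overlap. The 1 of 7 genes higher is a share near the first of these, and nothing is read from 1 gene that did not overlap.

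The 6 h difference of Cxcr4 was 0.90 (95% interval -0.12 to 1.93), which did not pass with all libraries (adjusted p = 0.198) and did without Bank1-/- 0 h replicate 5 (adjusted p = 0.0177). That made 2 of 7 genes higher, against 19.6% of all genes. Brightness of the array moved with this value. At 6 h it also differed by genotype, so brightness and genotype cannot be told apart here. The WT 6 h arrays had mean raw intensities of 146, 231, 232, 206 and 455, and those of Bank1-/- were 507, 348, 443, 290 and 511. WT replicate 5, the bright one, had the WT group's highest Cxcr4 level, at 8.84, and WT replicate 1, the dimmest, the lowest, at 6.43.

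With brightness as a covariate the 6 h difference of Cxcr4 was 0.17 (adjusted p = 0.923), and 0.14 (adjusted p = 0.763) with Bank1-/- 0 h replicate 5 left out as well. That of Rgs1 was 0.97 (adjusted p = 0.183), and 0.95 (adjusted p = 1.46e-07) with that library left out. Markers of erythroid cells moved with genotype at 6 h too, with 3 of 4 tested higher in Bank1-/- and a list mean of 8.40 to 9.16 against 7.52 to 7.86 in WT, and Hba-a1, an alpha globin gene, higher by 2.23. Of 5 tested myeloid markers 2 were higher, Adgre1 by 0.92 and S100a8 by 0.33, and without Bank1-/- 0 h replicate 5 Csf1r was also called, at -0.30. The myeloid list mean was 6.59 to 6.83 in Bank1-/- and 6.39 to 6.74 in WT. The part of these markers in the Rgs1 result was not tested.

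The differences of Cxcr5, Ccr7, Ccr6 and Gpr183 at 6 h were 0.17, -0.02, -0.22 and -0.27, with adjusted p from 0.57 to 0.974, and Rgs2 was not detected in either genotype. A second Cxcr5 probe gave -0.50 (adjusted p = 0.0897, or 0.00373 without Bank1-/- 0 h replicate 5). A second Ccr6 probe gave -0.42 (adjusted p = 0.393, or 0.0382 without that library). Median scaling, under which the median of all genes was 0.60 in this comparison, gave 1.35 for Cxcr5 (adjusted p = 0.00921). It turned the sign of Ccr7, to 1.09 (adjusted p = 0.0196), of Ccr6, to 0.86 (adjusted p = 0.205), and of Gpr183, to 0.58 (adjusted p = 0.157).

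**Figure D3:**
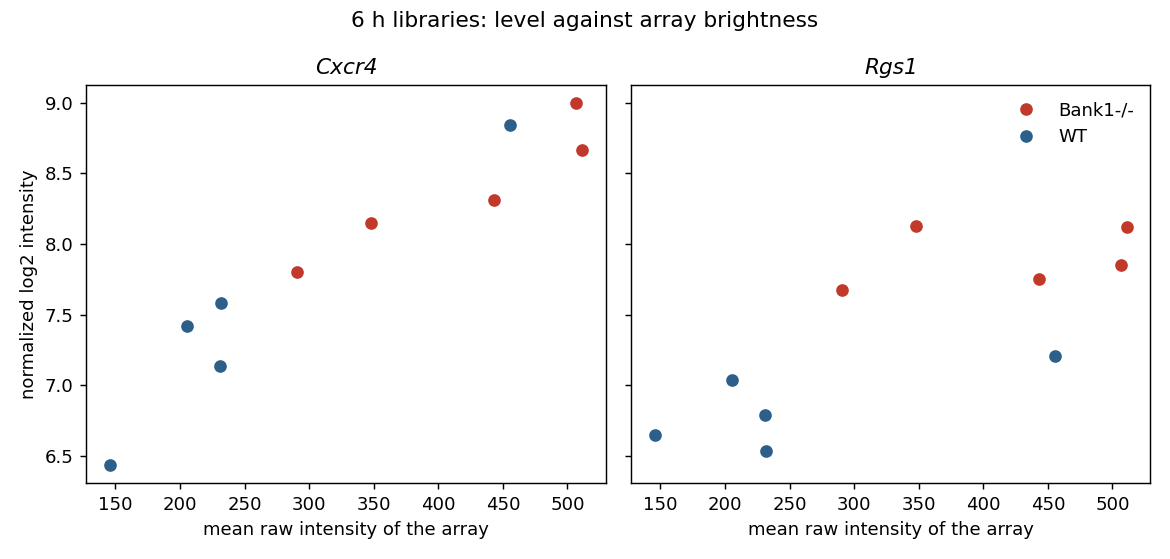
Normalized log2 intensity of Cxcr4 and Rgs1 (vertical axis) against the mean raw intensity of the array (horizontal axis) in the 10 libraries of 6 h, Bank1-/- in red and WT in blue. Cxcr4 runs from 6.43 on the dimmest array to 9.00 on one of the brightest. WT replicate 5, at a brightness of 455, reads 8.84 for Cxcr4, within the Bank1-/- range, and 7.21 for Rgs1, below it. Brightness differs by genotype at 6 h, so brightness and genotype cannot be told apart.

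At 24 h and at 48 h none of the 7 genes passed the limma test between genotypes. Few genes of any kind did, with 0.106% of all genes called at 24 h and 0.169% at 48 h. Rgs1 and Rgs2 were detected on 0 of 5 arrays of either genotype at 24 h, so the test could not show a difference for them there. At 48 h Rgs1 was detected on 2 of 5 Bank1-/- and 1 of 5 WT arrays, and Rgs2 on 2 of 5 of each. Their 48 h differences therefore lie near background. No unadjusted p of the 7 genes was under 0.05 at these hours with all libraries. The 24 h differences ran from -0.31 for Cxcr4 (95% interval -1.33 to 0.72) to 0.01 for Gpr183 (-0.61 to 0.62), and that of Ccr7 was -0.16 (-0.69 to 0.37). The 48 h differences ran from -0.27 for Cxcr5 (-0.72 to 0.18) to 0.02 for Rgs1 (-0.68 to 0.72). With all libraries the intervals for Cxcr4 and Ccr6 reached beyond 1 log2 unit on the lower side. Without Bank1-/- 0 h replicate 5 their lower limits were -0.90 and -0.46 at 24 h and -0.82 and -0.48 at 48 h. That of the Cxcr5 difference at 48 h was then -0.50, with an upper limit of -0.03 and an adjusted p of 0.962.

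**Figure D4:**
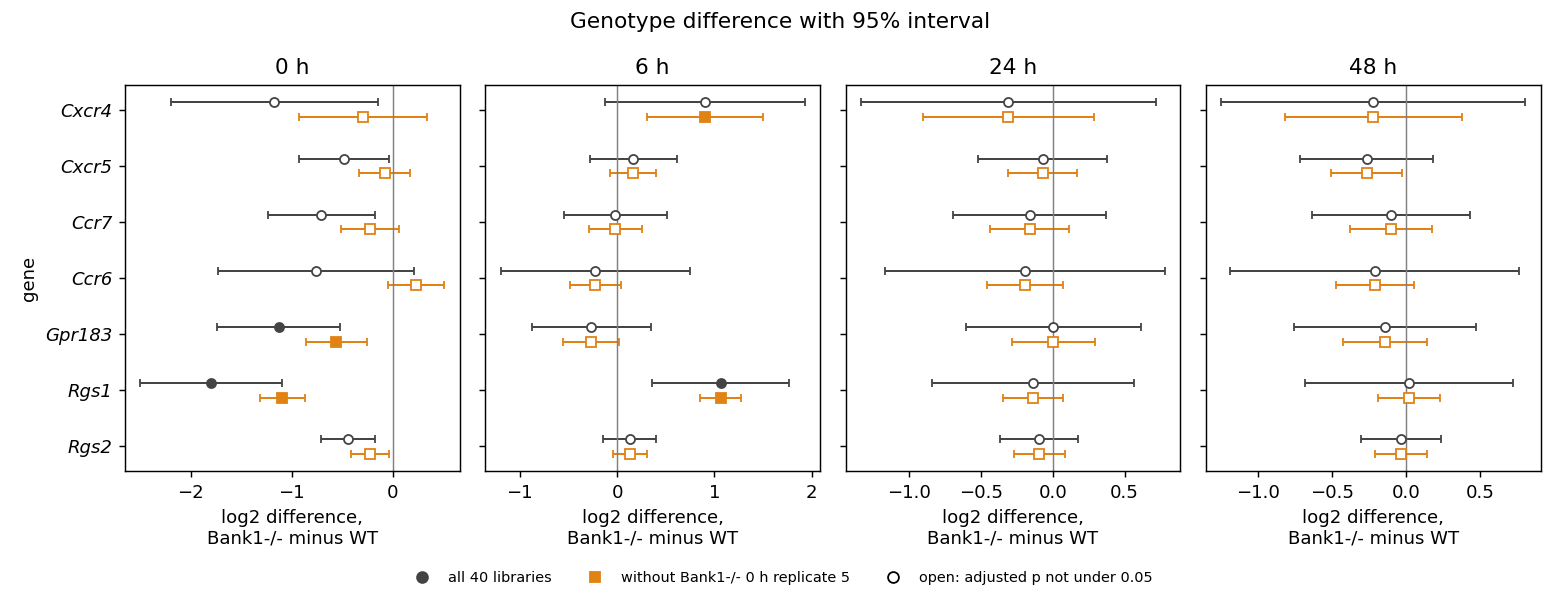
Log2 difference of Bank1-/- minus WT (horizontal axis) with its 95% interval for each of the 7 detected genes (vertical axis) at 0, 6, 24 and 48 h, from all 40 libraries (grey circles) and without Bank1-/- 0 h replicate 5 (orange squares). Filled symbols have an adjusted p under 0.05. Rgs1 lies at -1.09 at 0 h without that library and at 1.06 at 6 h, and no symbol is filled at 24 or 48 h. Rgs1 at 24 h, and Rgs2 at 6 and 24 h, were not detected in either genotype. The horizontal scales differ between panels.

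The change from 0 to 6 h was compared between genotypes directly. Rgs1 fell less in Bank1-/- than in WT cells, with a difference between the falls of 2.86 (SE 0.49, adjusted p = 0.000318), or 2.15 (SE 0.15, adjusted p = 2.45e-13) without Bank1-/- 0 h replicate 5. It passed under the other 55 settings tried, with the highest adjusted p of 0.0491 in the fit of the 4 groups alone. Rgs2 also passed (adjusted p = 0.0485), but not without that library (adjusted p = 0.0574), and 43 of 54 other settings did not call it. No size is given for Rgs2 because its 6 h groups were not detected. These 2 of 7 genes compare with 5.63% of all genes higher. Without that library the count was 1 of 7, against 7.58%. The difference for Cxcr4 was 2.08 (adjusted p = 0.0568), or 1.20 (adjusted p = 0.0565) without that library. The comparison holds the 0 h difference described above. Marker lists moved with it, against the same 5.63% of all genes. Of the early handling genes 8 of 15 were higher, or 11 without that library (medians 1.22 and 0.80). Of the myeloid markers 3 of 5 were higher either way (0.88 and 0.63), and of the erythroid markers 2 of 4 (0.80 and 0.73). Under median scaling the counts were 3, 1 and 2, against 0.423% of all genes. The part of these lists in the Rgs1 result was not tested.

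For the changes from 0 to 24 h and from 0 to 48 h none of the 7 genes passed with all libraries, against 0.455% and 0.0952% of all genes called. Without Bank1-/- 0 h replicate 5 Rgs1 passed in both (adjusted p = 0.000123 and 7.39e-06), which makes 1 of 7 against 0.529% and 0.169% of all genes higher. Rgs1 was at background in both genotypes at 24 h and on 3 of 10 arrays above it at 48 h, so these calls rest on the 0 h libraries.

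Rgs1 had 3 probes, and the 0 h result did not rest on the chosen one. The other 2 were detected on 15 and 14 of the 40 arrays, against 20 for the chosen probe. Their detection by group is not given here, so the sizes of their 6 h differences are not read. At 0 h the other 2 probes gave -1.03 (adjusted p = 2.49e-07) and -1.03 (adjusted p = 1.74e-07) without Bank1-/- 0 h replicate 5, against -1.09 for the chosen probe. At 6 h they gave 0.90 (adjusted p = 5.09e-07) and 0.51 (adjusted p = 0.00109) without that library. With all libraries the third probe did not pass at 6 h (adjusted p = 0.201). Over the 40 arrays the probes correlated with the chosen one at r = 0.988 and 0.980, given as a description of probes that share every library.

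**Figure D5:**
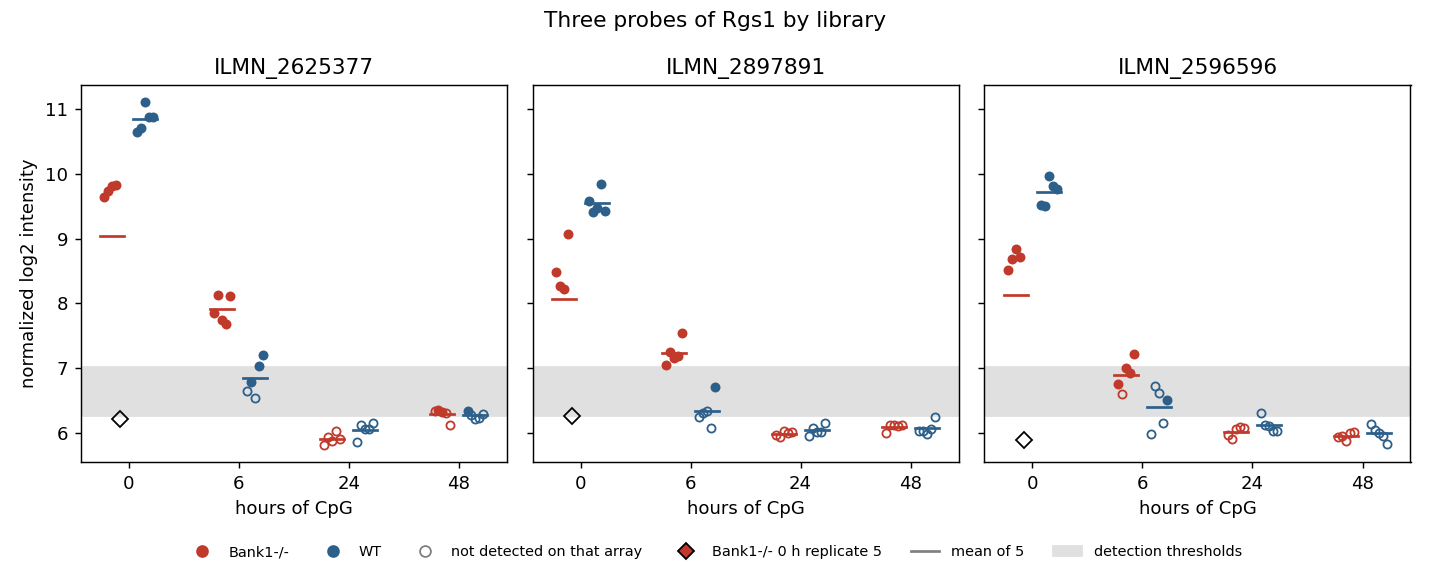
Normalized log2 intensity (vertical axis) of the 3 Rgs1 probes in the 40 libraries, by hours of CpG (horizontal axis), with symbols as in the plot of all genes by library. In each panel the 4 Bank1-/- 0 h libraries other than replicate 5 lie below the 5 WT libraries, and the probes lie at or below the band of detection thresholds at 24 and 48 h.

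The genes of like course were looked up over the 9453 genes and 40 arrays, as the 3 with the highest Pearson r. The arrays share the hour of culture, so these values describe a shared course over time. Cxcr4 was closest to Spag9 (r = 0.977), Maco1 (0.975) and Sgk1 (0.973), Gpr183 to H2-DMb1 (0.974), Egr3 (0.973) and Ephx1 (0.972), and Ccr6 to N4bp2l1 (0.981), H2-Ab1 (0.976) and Myo1e (0.975). Cxcr5 was closest to Cd72 (0.974), Itpkb (0.969) and Irf4 (0.965). Ccr7 was closest to Kdm6b (0.981), Lta (0.978) and Nfkb2 (0.975), which encodes an NF-kB subunit. Rgs1 was closest to Rhob (0.968), Cd86 (0.968) and Lyz1 (0.962), and Rgs2 to the histone genes H1f2 (0.972) and H2bc4 (0.970) and to Egr1 (0.966). Among the 7 genes, Ccr7 was the least like the others, with r from 0.31 against Rgs2 to 0.74 against Cxcr5. The highest r was 0.93, for Cxcr4 and Rgs2. It was 0.92 for Ccr6 and Gpr183, for Cxcr4 and Gpr183, and for Cxcr5 and Ccr6.

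Other genes of the same system were followed from lists. Their counts are read against all genes. Of these, 30.1% were lower and 34.6% higher in WT at 24 h than at 0 h, and 26.6% higher and 27.0% lower at 48 h than at 24 h. Median scaling called 3444 genes in WT from 24 to 48 h, both directions together. The list counts of that step under median scaling have no share by direction beside them, so nothing is read from their one-sidedness. Of 8 tested chemoattractant receptors outside the set, 5 were lower and 1 higher in WT at 24 h than at 0 h, with Gpr18 at -1.36, Cnr2, a cannabinoid receptor, at -3.17 and P2ry10 at -1.83. From 24 to 48 h 5 rose and 2 fell, among them S1pr4, another sphingosine 1-phosphate receptor, at 1.16. Of 6 tested other Rgs genes, 1 was lower at 24 h, Rgs14 at -1.28, and Rgs10 stood at -1.22 at 6 h and at 0.16 at 24 h. That 1 of 6 is below the share of all genes. Under median scaling, with 18.3% of all genes lower and 28.4% higher at 24 h, 5 of the 8 receptors were lower and 0 higher, and 5 rose and 0 fell by 48 h.

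Transcription factors known to act on these receptors moved with them in WT. At 24 h 11 of 13 tested were lower than at 0 h and 0 were higher, with a median of -1.17. Klf2, a regulator of lymphocyte homing, differed by -5.03 (adjusted p = 4.26e-11), Rel, an NF-kB subunit, by -2.49 and Foxo1 by -1.62. From 24 to 48 h 8 rose and 1 fell, with Klf2 at 3.32 (adjusted p = 1.01e-07), Irf4 at 1.31 and Foxo1 at 1.09. Without Bank1-/- 0 h replicate 5 the 1 that fell became 3. Under median scaling 8 of 13 were lower at 24 h and 6 rose by 48 h, with 0 moving the other way in either step. At 0 h Rel was lower in Bank1-/- by a difference of -1.06 (adjusted p = 0.0202), or -0.63 (adjusted p = 0.0354) without replicate 5.

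G protein subunits, receptor kinases and arrestins were mostly lower at 6 h in WT, 13 of 18 tested, with 1 higher, against 33.5% and 33.0% of all genes. Median scaling gave 14 and 0, against 43.2% and 6.37%. Gnai2, a G alpha subunit that chemokine receptors use, differed by -1.58 at 6 h, -1.08 at 24 h and 1.63 from 24 to 48 h. Of 23 tested genes of migration and adhesion, 15 were lower and 4 higher at 24 h, with Itgb7, an integrin subunit, at -3.03, Cd69, which opposes S1PR1 at the cell surface, at -2.04, and Cd44 at 2.93. From 24 to 48 h 15 rose and 3 fell, with Rac2 at 1.83 and Rassf5 at 1.92. Under median scaling 11 were lower and 4 higher at 24 h, and 15 rose and 1 fell by 48 h. Of 5 tested ligands and ligand-making enzymes, 2 were lower at 24 h and 0 higher, Sgpl1, the sphingosine 1-phosphate lyase, at -0.91 and Sphk2, a sphingosine kinase, at -0.63, and both rose by 48 h, by 1.05 and 0.85. The 24 h calls were lost under median scaling, with 0 of 5 lower.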

How the data were processed

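RNA from 40 samples of splenic B cells was read on Illumina bead arrays (150 ng total RNA, amplified and biotin-labelled per the labels). The authors deposited probe intensity on a linear scale, not normalized per the file headers, and a table of log2 intensity that equals, from its values, a quantile normalization of the deposited intensity followed by log2. Among the intensity columns, 8 belong to no sample here and were not used. The array software and genome build are not given in the sources used here.

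In limma 3.58.1 (R 4.3.3), normexp correction (offset 50) was applied to the raw values, followed by quantile normalization between arrays and a log2 transform. Probes took gene symbols from the platform annotation, updated by Entrez ID to GRCm38.p6 (34885 of 45281 probes had 1 symbol, 18 several, 10378 none; 34807 IDs matched and 0 symbols altered). The chosen probe of a gene is the one with the highest mean in the authors' table, and 9453 genes detected on at least 5 of 40 arrays were tested. Each was fitted with lmFit and eBayes with 8 group coefficients (32 residual degrees of freedom), for 17 comparisons: genotypes at 4 hours, 5 steps in time in each genotype, and 3 differences between genotypes in a change from 0 h. Two-sided p-values were adjusted by Benjamini-Hochberg over the 9453 genes, and 0.05 was the limit for a call. Where a probe was detected on 0 arrays of a group, a lower bound of the fold is given, against the higher of each array's threshold and the probe's own value. The fit was tested on simulated data. No pair of arrays was identical. Each alternative changed 1 choice (background, offset, scaling, filter, groups in the fit, array weights, brightness, replicate block, probe, each array left out), and 4 pairs with Bank1-/- 0 h replicate 5 left out, and median scaling of the list counts, were chosen after seeing the data. Slide could not be used as a block, since the headers give none.

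The genes, the lists and the markers were chosen with earlier results of these data known. The text names the members, up to 4 genes per list with the smallest p in a comparison, the 3 genes most like each member, and Bank1. With 5 arrays in a group, that number limits the precision. Plots were made in matplotlib 3.10.9.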

Additional observations from a re-analysis of the deposited data

Results flagged for a closer look

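In 64 groups of 5 libraries, 10 had a library whose gap to the rest exceeded Dixon's critical value of 0.71, and chance flags about 1 in 20 groups. Of the 10, 7 were Bank1-/- 0 h replicate 5, at 7.80 for Cxcr4, 9.64 for Cxcr5, 8.74 for Ccr7, 7.03 for Ccr6, 7.65 for Gpr183, 6.21 for Rgs1 and 6.02 for Rgs2. The other 3 were small in size: Cxcr5 at 11.70 in WT 0 h replicate 3, below a group that spans 0.05 log2 units in all, Ccr7 at 8.86 in Bank1-/- 24 h replicate 2, and Rgs1 at 6.13 in Bank1-/- 48 h replicate 5, where the probe was not detected.

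Between genotypes, the change from 0 to 6 h differed for Rgs1 (limma adjusted p = 0.000318) and for Rgs2 (adjusted p = 0.0485). The Rgs2 call was lost without Bank1-/- 0 h replicate 5, and 43 of 54 other settings did not make it.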

How the results depend on the processing

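Of the recomputed values of single genes, 6209 kept their side of the threshold, 171 lost the call, 96 gained one and 1 reversed. A value that was not called could change sign and still count as kept. Ccr6 in Bank1-/- against WT at 6 h, for example, ran from -0.42 to 0.86 and counted as kept throughout. The reversal was Ccr7 in Bank1-/- against WT at 6 h, at 1.09 (adjusted p = 0.0196) under median scaling, a setting that raised the median of all genes by 0.60 in that comparison, by 0.58 in WT from 6 to 24 h and by 0.12 between genotypes at 0 h, and lowered it by -0.39 in WT from 0 to 6 h. Under it the share of called genes that were higher went from 65.69% to 99.73% at 6 h between genotypes, from 49.57% to 12.85% in WT from 0 to 6 h and from 54.66% to 95.45% in WT from 6 to 24 h. The counts of 7 genes lower at 24 h than at 0 h held in both genotypes under every setting except detection on at least 20 arrays, which left 6 genes. At 0 h between genotypes the count of 2 became 1 with an offset of 16, without the detection filter and with the groups compared alone and Bank1-/- 0 h replicate 5 left out, and 0 with median scaling and with the groups compared alone; leaving out 1 library gave 1 to 3. At 6 h the count of 1 became 3 with median scaling and with array weights (with or without Bank1-/- 0 h replicate 5), 0 with brightness as a covariate and 2 with the replicate block and that library left out; leaving out 1 library gave 0 to 2. For the difference in the change from 0 to 6 h the count of 2 became 1 under median scaling, no filter, detection on 20 arrays, the groups compared alone, brightness, the replicate block and the second probe, and with that library left out beside brightness, the block or the groups alone; leaving out 1 library gave 1 to 3. For the change to 24 h the count of 0 became 2 with array weights, with or without that library, and 1 with the second probe and when that library was left out beside brightness, the block or the groups alone (0 to 1 leaving out 1). For the change to 48 h it became 1 with array weights and in the 4 settings that leave that library out beside another change (0 to 1 leaving out 1). In Bank1-/- at 48 h against 0 h the count of 4 became 7 with array weights and in those 4 settings (4 to 7 leaving out 1), at 6 h against 0 h the count of 6 became 3 with the groups alone, and in WT from 6 to 24 h the count of 5 became 2 with median scaling. The cause was not tested. Replicate numbers did not pair the samples: same-numbered samples had a mean correlation of deviations of -0.0096, 43 of 140 pairs were above 0.1 and 8 of 40 samples were closest to their own number. With the replicate block Rgs2 lost its difference in the change to 6 h (adjusted p = 0.0529).

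Counts over all genes moved by more than 1.5 times as well. Between genotypes, 143 genes at 0 h ran from 3 with the groups compared alone to 760 with array weights and Bank1-/- 0 h replicate 5 left out, 2087 at 6 h from 371 with brightness to 4855 with median scaling, 10 at 24 h from 4 with median scaling to 1753 with array weights, and 16 at 48 h from 7 to 56 with the same settings, the last without that library. For the differences in change, 890 ran from 40 to 2823, 43 from 3 to 1798 and 9 from 4 to 183. Against 0 h in Bank1-/- and from 24 to 48 h, median scaling gave 3809, 3695, 2725 and 3176 against 5735, 5655, 4819 and 5100. The signal over background limits S1pr1, Rgs2 and the late Rgs1 values, and the dim WT 6 h arrays had the highest thresholds.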
